A study of Saccharomyces cerevisiae with 8 samples.

Results

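The genes described here are those of trehalose metabolism in budding yeast (Saccharomyces cerevisiae): TPS1, TPS2, TPS3, TSL1, PGM2, UGP1, NTH1, NTH2 and ATH1. They were chosen by gene name, for what their enzymes do, and all 9 were found among the 7127 features of the deposited table. The study sequenced poly(A) RNA to ask how the tRNA methyltransferase Trm2 bears on expression when translation elongation runs freely and when it is inhibited. There were 4 groups of 2 libraries, described by the series as biological duplicates, all haploid cells of the laboratory strain BY4741 grown in rich medium (YPD) at 30 °C. The groups were the knockout of TRM2 (Trm2KO) with 50 µg/mL hygromycin B, Trm2KO without hygromycin B, wild type (WT) with 50 µg/mL hygromycin B, and WT without hygromycin B. Hygromycin B is an aminoglycoside that inhibits elongation. Per the labels' protocols the knockout was grown with 200 µg/mL Geneticin, which is not stated for WT, so effects of the knockout and of Geneticin cannot be told apart between genotypes. The same protocols have hygromycin B cultures harvested at an OD600 of 0.4 and the others at 0.6 to 0.8, so drug and harvest density cannot be told apart either.

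Trehalose is a glucose disaccharide that yeast stores and that protects proteins and membranes during heat, drying and starvation. It is made from UDP-glucose and glucose phosphate by a complex in which Tps1 makes trehalose phosphate, Tps2 removes the phosphate, and Tps3 and Tsl1 are large regulatory subunits. Pgm2, the major phosphoglucomutase, and Ugp1, the UDP-glucose pyrophosphorylase, supply UDP-glucose, which glycogen and cell wall glucan also draw on. Nth1, the neutral trehalase of the cytosol, and its paralogue Nth2 split trehalose back into glucose, and the acid trehalase Ath1 acts on trehalose outside the cell. In many stresses genes of synthesis and of breakdown are induced together, and protein kinase A holds the synthesis genes low in growing cells. The data are transcript levels, and trehalose and enzyme activity are not analysed here.

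Levels are given as normalised FPKM: the deposited FPKM (fragments per kilobase of transcript, scaled to the mapped fragments of the library) divided by a scale factor per library. They are per length, so genes can be set side by side, and each depends on what the remaining transcripts of its library do. In such bulk samples fewer cells that express a gene and less RNA per cell cannot be told apart. All log2 changes are differences of log2(normalised FPKM + 1). TRM2 had 0 in all 4 Trm2KO libraries and between 116 and 158 normalised FPKM in the WT libraries. LEU2, URA3 and MET17, which BY4741 lacks, were listed at 0 in all 8 libraries, and HIS3, of which the strain keeps a piece, had 34.4 to 54.0 normalised FPKM. Of the MATa markers STE2, STE6 and BAR1 were present in every library, and the short genes MFA1 and MFA2 were listed at 0 in all of them. Among the MATalpha markers STE3 and MF(ALPHA)1 reached at most 5.76 and 1.78 normalised FPKM, MF(ALPHA)2 had 7.93 to 12.7 and SAG1 23.2 to 30.1. The 22 features with ribosomal DNA names took 2.01% to 19.3% of a library's FPKM sum. In WT without hygromycin B they took 15.8% in library 1 and 2.01% in library 2. The 2 libraries of that group also differed for the genes here: all 9 were higher in library 1, by a median of 0.20 on the log2 scale, where the median absolute difference over all tested features was 0.07. PGM2 differed by 0.70. In Trm2KO with hygromycin B 0 of the 9 were higher in library 1 (median absolute difference 0.08, against 0.06 over all features), with ribosomal DNA shares of 3.75% and 12.2%. In Trm2KO without it 7 of the 9 were higher in library 1 (0.07, against 0.08), with shares of 19.3% and 5.36%. For WT with hygromycin B the count was 6 of the 9 (0.12, against 0.13), with shares of 2.68% and 2.39%. The part of the ribosomal DNA share in these differences was not tested.

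The 9 genes lie on 5 chromosomes of the RefSeq assembly R64, each as 1 coding segment with no intron, and none overlaps another annotated gene. The closest neighbour, AIM26, ends 169 bases from UGP1. Promoter windows ran from 250 bases before the start codon to 50 bases into the coding sequence, and 5 of them are printed, because 4 of these genes were lower together in the knockout and the fifth, NTH2, rose most with hygromycin B in WT. They were read from R64, 5′ to 3′ on the strand of the gene, and the capitals mark AGGGG or its complement CCCCT, the letters of the stress response element bound by Msn2 and Msn4. The TPS2 and NTH2 windows hold neither. The windows are chrII:490343-490642 on the minus strand for TPS1, chrIV:593643-593942 on the plus strand for TPS2, chrXIII:70374-70673 on the plus strand for TSL1, chrXIII:477557-477856 on the minus strand for PGM2, and chrII:241234-241533 on the minus strand for NTH2.
TPS1: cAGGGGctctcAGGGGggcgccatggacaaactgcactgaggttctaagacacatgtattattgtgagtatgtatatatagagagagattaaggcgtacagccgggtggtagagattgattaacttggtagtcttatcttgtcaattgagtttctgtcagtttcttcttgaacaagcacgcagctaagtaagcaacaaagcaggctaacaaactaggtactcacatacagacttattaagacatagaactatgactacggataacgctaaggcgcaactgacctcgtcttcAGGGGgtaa
TPS2: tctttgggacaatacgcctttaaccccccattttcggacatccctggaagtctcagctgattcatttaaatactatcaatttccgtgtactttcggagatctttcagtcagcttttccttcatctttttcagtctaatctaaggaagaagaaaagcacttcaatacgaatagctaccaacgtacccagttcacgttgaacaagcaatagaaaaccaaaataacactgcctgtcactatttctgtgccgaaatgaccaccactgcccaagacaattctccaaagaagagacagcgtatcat
TSL1: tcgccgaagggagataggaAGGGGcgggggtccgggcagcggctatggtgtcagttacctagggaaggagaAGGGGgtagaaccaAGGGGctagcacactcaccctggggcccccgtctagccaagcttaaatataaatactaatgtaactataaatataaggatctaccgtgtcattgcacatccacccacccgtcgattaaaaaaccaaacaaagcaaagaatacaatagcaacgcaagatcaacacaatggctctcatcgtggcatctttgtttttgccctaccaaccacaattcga
PGM2: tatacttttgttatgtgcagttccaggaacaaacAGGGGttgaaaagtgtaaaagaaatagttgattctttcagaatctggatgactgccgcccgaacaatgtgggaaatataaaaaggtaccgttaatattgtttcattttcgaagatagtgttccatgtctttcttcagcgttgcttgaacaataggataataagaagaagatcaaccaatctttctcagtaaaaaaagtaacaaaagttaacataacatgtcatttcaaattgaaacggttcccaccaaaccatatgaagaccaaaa
NTH2: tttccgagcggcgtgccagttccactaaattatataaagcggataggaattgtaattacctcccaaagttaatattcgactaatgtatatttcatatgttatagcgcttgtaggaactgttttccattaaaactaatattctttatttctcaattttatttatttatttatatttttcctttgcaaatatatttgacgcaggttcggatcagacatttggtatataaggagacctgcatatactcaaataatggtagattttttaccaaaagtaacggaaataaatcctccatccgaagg

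AGGGG, searched on both strands, was found in 5 of the 9 windows, with 3 matches each in TPS1, TPS3 and TSL1 and 1 each in PGM2 and NTH1. Of all 6001 windows of protein-coding genes 21.6% held at least 1 match and 0.483% held at least 3. In TSL1 the 3 matches lay at −231, −179 and −165 bases from the start codon, all on the strand of the gene. In TPS1 and TPS3 one of the 3 lay inside the coding sequence. TPS2, UGP1, NTH2 and ATH1 had no AGGGG in this window. AGGGAT, the core of the post-diauxic shift element, was found in TPS2 only, and GAANNTTC, the core of a heat shock element, in ATH1 only, against 9.33% and 11.8% of all windows. AGGGG and AGGGAT differ at the fifth letter, so no match counts as both.

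**Figure D1:**
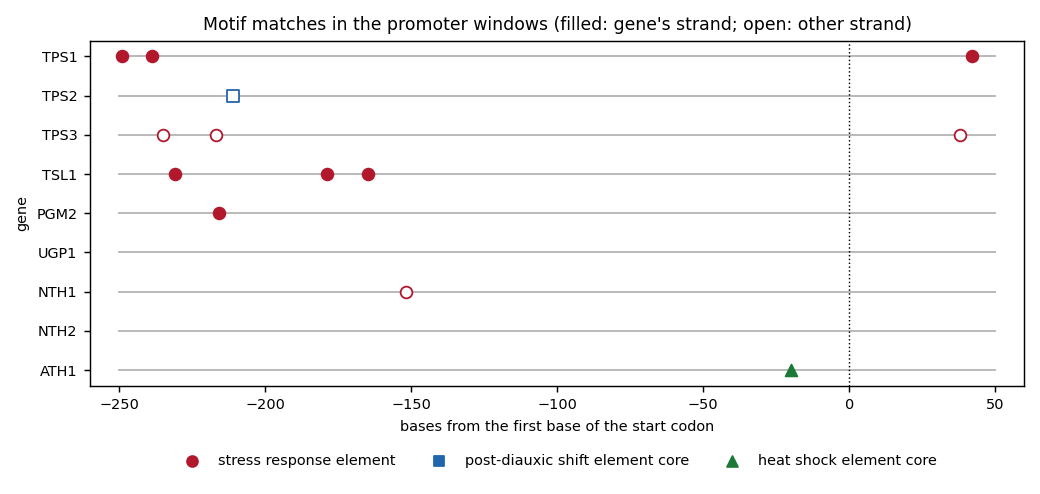
Positions of 3 motifs in the promoter windows of the 9 genes, in bases from the start codon (dotted line), with filled symbols on the strand of the gene and open symbols on the other. TSL1 carries 3 stress response element matches before its start, while UGP1 and NTH2 carry none of the 3 motifs.

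Among the synthesis genes TPS1, the synthase, was the most abundant in every library. TPS1 had 317 and 335 normalised FPKM in Trm2KO with hygromycin B, 166 and 173 in Trm2KO without it, 505 and 539 in WT with hygromycin B, and 334 and 278 in WT without it. The highest and lowest groups, treated WT and the untreated knockout, were clear of all others, while the treated knockout and untreated WT overlapped. TPS2, the phosphatase, had 87.2 and 96.1 normalised FPKM in Trm2KO with hygromycin B, 47.6 and 44.3 in Trm2KO without it, 72.9 and 66.9 in WT with it, and 146 and 111 in WT without it. Its 4 groups did not overlap, and the order differed from that of TPS1, with untreated WT highest. The share of all features whose 4 groups did not overlap was not computed.

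The regulatory subunits shared an order of groups and differed in range. TSL1 had 68.5 and 82.5 normalised FPKM in Trm2KO with hygromycin B, 22.1 and 21.2 in Trm2KO without it, 52.1 and 56.0 in WT with it, and 57.2 and 41.1 in WT without it. The untreated knockout was lowest and the treated knockout highest, and the 2 WT groups overlapped. TPS3 had 44.1 and 46.2 normalised FPKM in Trm2KO with hygromycin B, 34.4 and 33.8 in Trm2KO without it, 39.5 and 38.4 in WT with it, and 40.2 and 36.1 in WT without it. As for TSL1, the untreated knockout was lowest, the treated knockout highest, and the 2 WT groups overlapped. Its highest library was 1.36 times its lowest, the narrowest range of the 9 genes, against 3.89 times for TSL1. The coding sequences of TPS3 and TSL1 were 67.2% identical over aligned bases with no shared run longer than 15 bases.

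Of the genes that supply UDP-glucose, PGM2 varied most of the 9, with its highest library at 4.14 times its lowest. It had 48.8 and 51.8 normalised FPKM in Trm2KO with hygromycin B, 20.1 and 18.9 in Trm2KO without it, 78.0 and 68.6 in WT with it, and 78.4 and 47.9 in WT without it. The untreated knockout stood below all other libraries, and untreated WT spanned the range from treated knockout to treated WT. UGP1 had 228 and 243 normalised FPKM in Trm2KO with hygromycin B, 199 and 189 in Trm2KO without it, 214 and 178 in WT with it, and 191 and 167 in WT without it. The treated knockout was highest and the other 3 groups overlapped.

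The breakdown genes were ordered NTH1, NTH2 and ATH1 in level in every library. NTH1 had 122 and 126 normalised FPKM in Trm2KO with hygromycin B, 66.3 and 66.2 in Trm2KO without it, 168 and 158 in WT with it, and 86.0 and 80.7 in WT without it. NTH2 had 55.7 and 59.1 normalised FPKM in Trm2KO with hygromycin B, 36.5 and 33.5 in Trm2KO without it, 75.6 and 82.5 in WT with it, and 29.2 and 28.3 in WT without it. The 4 groups were separate for both trehalase paralogues, though how many of all features had 4 separate groups was not computed. Treated WT was highest in both, and the lowest group was the untreated knockout for NTH1 and untreated WT for NTH2. NTH1 and NTH2 were 72.4% identical in coding sequence, with 33 bases as the longest shared run. ATH1 was low throughout, with 8.77 and 9.56 normalised FPKM in Trm2KO with hygromycin B, 8.83 and 9.29 in Trm2KO without it, 13.7 and 11.5 in WT with it, and 9.44 and 8.21 in WT without it. Treated WT lay above the other 3 groups, which overlapped.

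**Figure D2:**
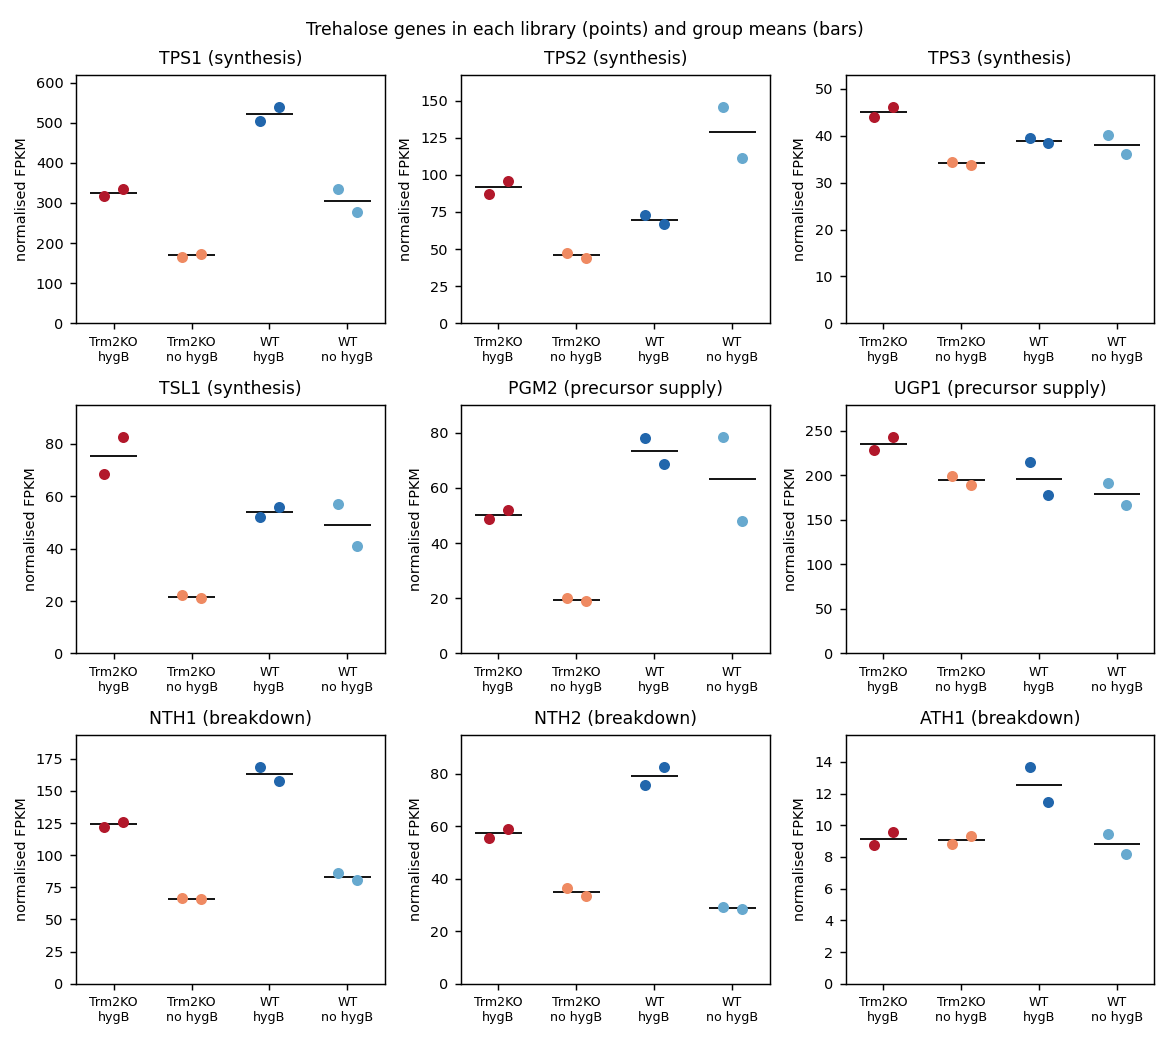
Normalised FPKM of the 9 genes in the 8 libraries (points) with the mean of each group (bars), on axes that start at 0. TPS1, TPS2, TPS3, TSL1, PGM2 and NTH1 have their lowest group mean in Trm2KO without hygromycin B, and TPS2 is the only 1 of the 9 whose highest group mean is in WT without it.

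Without hygromycin B, 3 of the 4 synthesis genes and PGM2 were lower in the knockout than in WT. PGM2 fell by 1.61 on the log2 scale, to 19.5 ± 0.80 normalised FPKM in Trm2KO, against 63.2 ± 21.5 in WT (SD, n = 2; SE 0.21, limma adjusted p = 0.00194). TPS2 fell by 1.45, to 46.0 ± 2.38 in Trm2KO, against 129 ± 24.3 in WT (SE 0.13, limma adjusted p = 0.000533). TSL1 fell by 1.13 (SE 0.16, limma adjusted p = 0.00258) and TPS1 by 0.84 (SE 0.09, limma adjusted p = 0.00108), whereas TPS3 was at −0.15 and did not pass (limma adjusted p = 0.0999, 95% interval −0.31 to 0.00), although it passed with TPM without ribosomal DNA features (log2 −0.32, limma adjusted p = 0.00444). The trehalases split: NTH1 fell by 0.33 (limma adjusted p = 0.00454), NTH2 rose by 0.27 (limma adjusted p = 0.021) though it was at −0.02 with FPKM as deposited, and ATH1 at 0.04 and UGP1 at 0.12 did not pass (limma adjusted p = 0.828 and 0.411) and were below 0 with FPKM as deposited and with TPM, with or without ribosomal DNA features. In all 6 of 9 genes passed, where 43.0% of the 6439 tested features passed; 5 were lower and 1 higher, where 19.8% of all features were lower and 23.2% higher. The median of the 9 was −0.33, against 0.03 over all features. Of all calls 54.0% were higher in the knockout, but 14.1% with FPKM as deposited, 11.4% with TPM (FPKM rescaled to one common sum per library) and 19.1% with TPM without ribosomal DNA features. In FPKM as deposited all features had a median of −0.26, and TPS2, TSL1 and PGM2 still passed while TPS1 (log2 −1.14, limma adjusted p = 0.244) and NTH1 (log2 −0.62, limma adjusted p = 0.859) did not. NTH2 did not pass without WT library 1 (limma adjusted p = 0.0721), WT library 2 (0.1) or Trm2KO library 1 (0.117), or with TPM (0.913).

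With hygromycin B in WT the breakdown genes rose and TPS1 and TPS2 of the synthesis complex moved in opposite directions. NTH2 rose 2.69-fold, to 79.1 ± 4.87 normalised FPKM with the drug, against 28.8 ± 0.63 without it (SD, n = 2; log2 1.43, SE 0.07, limma adjusted p = 4.98e-06). NTH1 rose 1.94-fold (log2 0.96, SE 0.05, limma adjusted p = 8.58e-06) and ATH1 1.38-fold (log2 0.46, SE 0.12, limma adjusted p = 0.00954). TPS1 rose 1.71-fold, to 522 ± 24.1 with the drug, against 306 ± 39.6 without it (log2 0.78, SE 0.09, limma adjusted p = 0.00026). TPS2, whose product acts on what Tps1 makes, fell by 0.86, to 69.9 ± 4.2 with the drug, against 129 ± 24.3 without it (SE 0.13, limma adjusted p = 0.000804). TSL1 was at 0.15, PGM2 at 0.25, UGP1 at 0.13 and TPS3 at 0.03, or −0.06 for TPS3 with quantile normalisation, and none of these 4 passed (limma adjusted p = 0.303 to 0.666). With TPM 3 of them passed, TSL1 at 0.54 (limma adjusted p = 0.0116), PGM2 at 0.64 (0.00309) and UGP1 at 0.52 (0.0254). With TPM without ribosomal DNA features all 4 passed, TPS3 at 0.32 (limma adjusted p = 0.00135) among them. Of the 9 genes 5 passed, where 78.8% of all features passed, 4 of them higher and 1 lower, against 40.4% and 38.4% of all features. Their median was 0.25, against 0.02 over all features. Of all calls 51.3% were higher with the drug, but 85.6% with FPKM as deposited, 72.0% with TPM and 65.9% with TPM without ribosomal DNA features. In FPKM as deposited all features had a median of 0.61 and TPS2 did not pass (log2 −0.25, limma adjusted p = 0.672), although it stayed 0.86 below that median. Without WT library 1 grown without drug TSL1 (log2 0.39, limma adjusted p = 0.0346) and PGM2 (log2 0.60, limma adjusted p = 0.00276) passed. Without library 2 of that group they were at −0.08 and −0.10 and ATH1 did not pass (limma adjusted p = 0.0616).

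In the knockout hygromycin B was followed by higher levels of 7 of the 9 genes, all 4 of the synthesis complex among them. TSL1 rose 3.36-fold, to 75.5 ± 9.96 normalised FPKM with the drug, against 21.7 ± 0.65 without it (SD, n = 2; log2 1.75, SE 0.16, limma adjusted p = 0.000713), a change higher than that of 99.5% of tested features. PGM2 rose 2.51-fold, to 50.3 ± 2.12 with the drug, against 19.5 ± 0.80 without it (log2 1.33, SE 0.21, limma adjusted p = 0.00393). TPS2 rose 1.97-fold (limma adjusted p = 0.00205), TPS1 1.92-fold (limma adjusted p = 0.000849) and TPS3 1.31-fold (limma adjusted p = 0.00459). NTH1 rose 1.86-fold (limma adjusted p = 0.000232) and NTH2 1.62-fold (limma adjusted p = 0.000853). UGP1 at 0.28 did not pass (limma adjusted p = 0.0776), nor did ATH1 at 0.01 (limma adjusted p = 0.938, 95% interval −0.27 to 0.30). The 7 calls, 7 higher and 0 lower, stood beside 43.1% of all features called, 20.9% higher and 22.3% lower, and the median of the 9 was 0.89, against −0.02. Of all calls 48.3% were higher with the drug, but 78.1% with FPKM as deposited, 90.5% with TPM and 85.9% with TPM without ribosomal DNA features. In FPKM as deposited, with 0.36 as the median of all features, TSL1 and PGM2 passed and the other 5 did not (log2 0.79 to 1.38, limma adjusted p = 0.0714 to 0.537). UGP1 passed without WT library 1 (limma adjusted p = 0.0379) or WT library 2 (0.0363) with hygromycin B. It also passed with TPM (log2 0.58, limma adjusted p = 0.0378), TPM without ribosomal DNA features (log2 0.50, 0.00338), quantile normalisation (log2 0.37, 0.0378) and a fit of only the 2 groups compared (0.0242).

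Under hygromycin B the knockout had less TPS1 than WT and less of each trehalase, and more TPS2 and TSL1, the last 2 of which turn below 0 in FPKM as deposited. TPS1 fell by 0.68, to 326 ± 13.3 normalised FPKM in Trm2KO, against 522 ± 24.1 in WT (SD, n = 2; SE 0.09, limma adjusted p = 0.000547). NTH2 fell by 0.46 (limma adjusted p = 0.000938), ATH1 by 0.41 (limma adjusted p = 0.016) and NTH1 by 0.39 (limma adjusted p = 0.000569). In FPKM as deposited none of these 3 trehalase calls held (limma adjusted p = 0.068 for NTH2 at −0.96, 0.1 for ATH1 at −0.89 and 0.0973 for NTH1 at −0.90). TSL1 rose by 0.47 (SE 0.16, limma adjusted p = 0.0321), TPS2 by 0.39 (SE 0.13, limma adjusted p = 0.0302) and TPS3 by 0.21 (SE 0.06, limma adjusted p = 0.0233), but in FPKM as deposited, with −0.53 as the median of all features, they were at −0.03, −0.12 and −0.29. Relative to that median they were at 0.50, 0.41 and 0.24. PGM2 at −0.53 and UGP1 at 0.27, or −0.24 for UGP1 with FPKM as deposited, did not pass (limma adjusted p = 0.0534 and 0.0553), and both passed with a replicate block (limma adjusted p = 0.0389 and 0.0396). PGM2 passed too with FPKM as deposited (log2 −1.03, limma adjusted p = 0.0467), TPM (log2 −0.85, 0.000135), TPM without ribosomal DNA features (log2 −0.77, 0.00485) and a fit of only the 2 groups compared (0.0051). It also passed without either WT library grown without drug (limma adjusted p = 0.00188 and 0.00198), as did UGP1 (0.0477 and 0.0495) and, without WT library 1 with drug, UGP1 again (0.0158). Of the 9 genes 7 passed, where 77.2% of all features passed, 3 higher and 4 lower against 37.3% and 39.9% of all features, with medians of −0.39 and −0.03. Of all calls 48.3% were higher in the knockout, but 16.6% with FPKM as deposited, 28.7% with TPM and 34.5% with TPM without ribosomal DNA features. Each of the 3 calls upwards, TPS2, TPS3 and TSL1, ended with TPM, with TPM without ribosomal DNA features, and without at least 3 of the 8 libraries taken singly: TPS2 without any 1 of the 4 libraries with hygromycin B (limma adjusted p = 0.0555 to 0.143), TPS3 without WT library 2 or either knockout library with it (0.0549 to 0.135), and TSL1 without either WT library with it, knockout library 2 with it or either knockout library without it (0.0519 to 0.168). ATH1 did not pass without WT library 1 or knockout library 1 with hygromycin B (limma adjusted p = 0.0647 and 0.083), or with quantile normalisation (0.247).

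**Figure D3:**
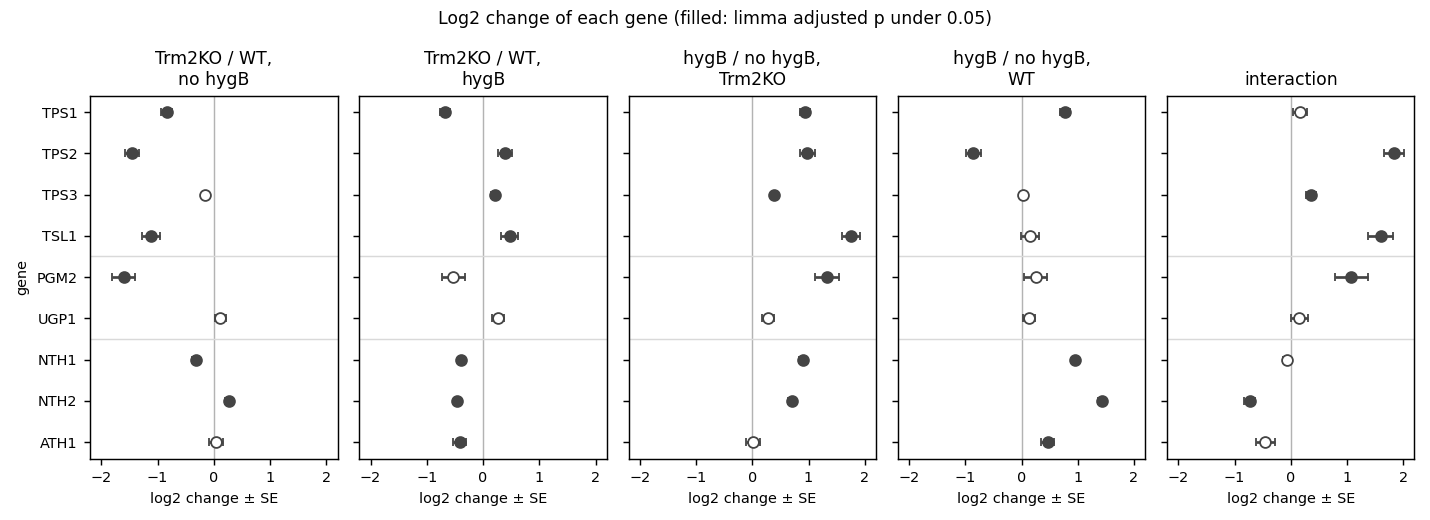
Log2 change of each gene in the 5 comparisons, with standard errors from the limma fit; filled points have an adjusted p under 0.05. TPS2 lies left of 0 for hygromycin B in WT and right of 0 for hygromycin B in Trm2KO; for Trm2KO against WT with hygromycin B, the points of TPS2, TPS3, TSL1 and UGP1 lie right of 0 here but left of 0 with FPKM as deposited.

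The interaction, which is the response to hygromycin B in the knockout minus that in WT, passed for 5 of the 9 genes, where 64.5% of all features passed. TPS2 had the largest, at 1.84 (SE 0.18, limma adjusted p = 0.000264). For TPS2 both Trm2KO libraries with the drug lay above both without it, and both WT libraries with it lay below both without it. TSL1 was at 1.60 (SE 0.23, limma adjusted p = 0.00112), PGM2 at 1.07 (SE 0.30, limma adjusted p = 0.0176) and TPS3 at 0.36 (SE 0.09, limma adjusted p = 0.0128). NTH2 was at −0.73 (SE 0.10, limma adjusted p = 0.000912), the only 1 of the 5 with a smaller response in the knockout. Higher interactions were called for 4 genes and lower for 1, where 30.6% and 33.9% of all features were called. Of all these calls 47.5% were higher, but 30.1% with FPKM as deposited. The 5 comparisons draw on the same 8 libraries and are not independent of each other. For TPS1 the difference of responses was 0.16 (95% interval −0.15 to 0.48, limma adjusted p = 0.306), or −0.05 with FPKM as deposited and −0.06 with quantile normalisation, and for NTH1 it was −0.07 (95% interval −0.25 to 0.12, limma adjusted p = 0.478). ATH1 was at −0.45 (limma adjusted p = 0.0508), and UGP1 at 0.15, or −0.06 with FPKM as deposited (limma adjusted p = 0.411). With FPKM as deposited limma called 0 of the 9, with 2 at an unadjusted p under 0.05, while without any 1 library 3 to 6 of the 9 were called. PGM2 did not pass without WT library 2 with hygromycin B (limma adjusted p = 0.0644), Trm2KO library 2 without it (0.0539) or Trm2KO library 2 with it (0.0543), and TPS3 did not pass without the last of these (0.0565) or with TPM (0.475). TPS1 passed without WT library 2 grown without drug (limma adjusted p = 0.0474) and ATH1 without WT library 2 with it (0.0214), or with TPM without ribosomal DNA features (0.0217), no filter on low values (0.049) or eBayes without trend (0.0368).

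The synthesis genes were then set against the breakdown genes within each library, as the mean log2 level of TPS1, TPS2, TPS3 and TSL1 minus that of NTH1, NTH2 and ATH1. A factor common to a whole library cancels in this difference, apart from the pseudocount. It was 1.24 and 1.3 in Trm2KO with hygromycin B, 0.80 and 0.79 in Trm2KO without it, 0.72 and 0.80 in WT with it, and 1.79 and 1.58 in WT without it. Untreated WT was thus highest, the treated knockout next, and the untreated knockout and treated WT overlapped at the low end. The difference of group means was −0.89 for Trm2KO against WT without hygromycin B and −0.92 for the drug in WT, and it was 0.48 for the drug in Trm2KO and 0.52 for Trm2KO against WT with it. The terms behind the similar values differed. The mean log2 of the synthesis genes was 5.67 and 5.64 in the untreated knockout, while treated WT had 6.57 in both libraries, against 6.70 and 6.39 in untreated WT. That of the breakdown genes was 4.87 and 4.85 in the untreated knockout, while treated WT had 5.85 and 5.78, against 4.91 and 4.81 in untreated WT. In normalised FPKM the untreated knockout was thus lower in synthesis genes at a like mean of breakdown genes (NTH1 −0.33, NTH2 0.27, ATH1 0.04). Treated WT was higher in breakdown genes at a like mean of synthesis genes (TPS1 0.78, TPS2 −0.86, TSL1 0.15, TPS3 0.03). Unlike the difference, each mean alone moves with the scaling. The median of all features was 0.03 here and −0.19 with TPM for Trm2KO against WT without the drug. For the drug in WT it was 0.02 and 0.40. The score has no test, and with 2 libraries a group an exact two-sided permutation test of a single value cannot go below p = 0.333.

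**Figure D4:**
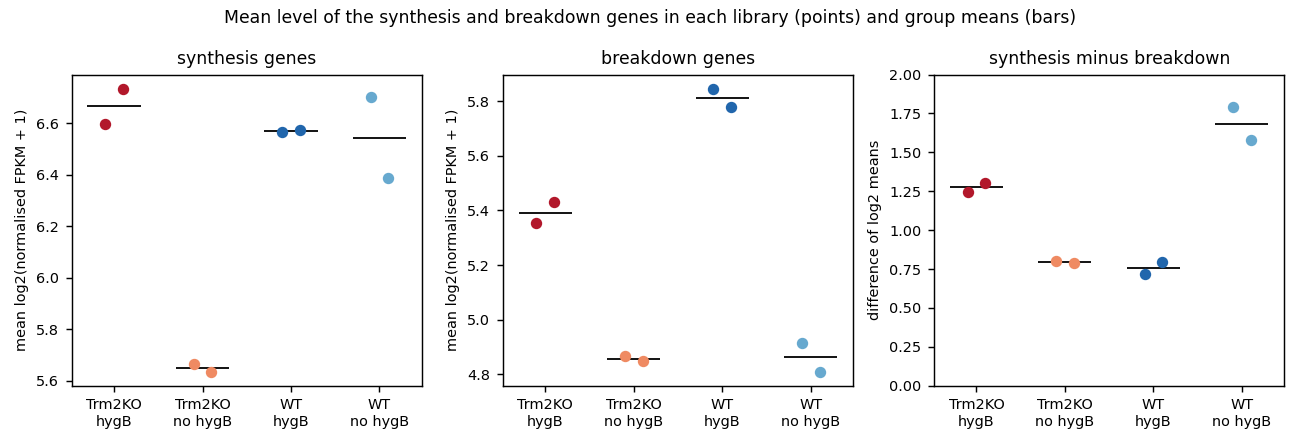
Mean log2(normalised FPKM + 1) of the 4 synthesis genes and of the 3 breakdown genes, and their difference, by library (points) and group mean (bars). The difference is 1.58 and 1.79 in untreated WT and stays at or under 0.80 in Trm2KO without and WT with hygromycin B.

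Within the synthesis complex the mix of subunit transcripts changed with the groups, as shares of their summed FPKM, which no scale factor alters. TPS1 made up 76.2% ± 1.08 in WT with hygromycin B, against 58.7% ± 1.21 in WT without it (SD, n = 2), and TPS2 made up 10.2% ± 0.94, against 24.6% ± 0.97. The ratio of TPS1 to TPS2 was 6.93 and 8.06 in treated WT libraries, against 2.29 and 2.49 in untreated ones. In the knockout that ratio was 3.63 and 3.49 with hygromycin B, against 3.47 and 3.91 without it, and the ranges of the groups overlapped. The regulatory subunits changed places there: the ratio of TPS3 to TSL1 was 0.64 and 0.56 in Trm2KO with hygromycin B, against 1.55 and 1.59 in Trm2KO without it. In the WT libraries it was 0.76 and 0.69 with the drug, against 0.70 and 0.88 without it. TPS3 exceeded TSL1 in both untreated knockout libraries and in none of the other 6. The ratio of UGP1 to PGM2 was 9.94 and 9.98 in the untreated knockout and 2.44 to 4.68 in the other 6 libraries.

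Among the breakdown genes NTH1 held the largest share in every library. NTH2 made up 31.1% ± 2.42 of their FPKM in WT with hygromycin B, against 23.8% ± 0.51 in WT without it. In the knockout NTH2 made up 30.1% ± 0.41 with the drug, against 31.7% ± 1.41 without it. ATH1 made up 4.81% ± 0.16 in Trm2KO with the drug, against 8.22% ± 0.44 without it, and 4.93% ± 0.53 in WT with the drug, against 7.29% ± 0.40 without it. The share of ATH1 was thus lower with hygromycin B in both genotypes.

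**Figure D5:**
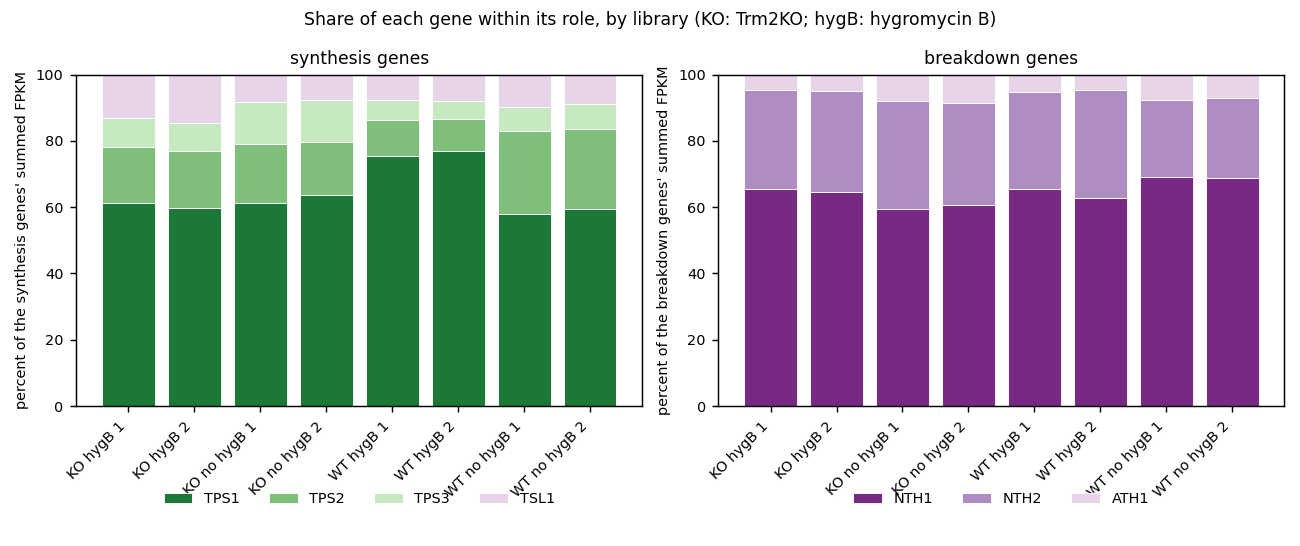
Share of each gene in the summed FPKM of the 4 synthesis genes (left) and of the 3 breakdown genes (right), for each library. TPS1 takes 75.5% and 77.0% of the synthesis genes in WT with hygromycin B and between 57.9% and 63.6% in the other 6 libraries.

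Genes next to this pathway were described from a list of 18 by role. They were hexose kinases, PGM1 and PGM3, regulators of trehalase, protein kinase A, stress transcription factors and the transporter MAL11. Without hygromycin B 9 of the 18 were lower and 4 higher in the knockout (median −0.31), where 43.0% of all features were called. Those lower included HXK1 (log2 −1.54) and GLK1 (−0.93), which phosphorylate glucose, EMI2 (−1.04), a paralogue of GLK1, and DCS2 (−0.95), a paralogue of the Nth1 inhibitor DCS1. MAL11, an alpha-glucoside transporter that takes up trehalose, was at −0.74. With the drug in WT 6 were higher and 7 lower (median −0.04), where 78.8% of all features were called. DCS2 at 1.87, DCS1 at 1.32 and PGM3 at 1.32 rose, and BMH1, a 14-3-3 protein that activates Nth1, fell by 1.22, the main hexokinase HXK2 by 1.80 and PGM1 by 1.48. In the knockout 7 rose and 4 fell with the drug (median 0.04), where 43.1% of all features were called, with DCS2 at 1.72, HXK1 at 1.2 and GLK1 at 0.92, and HXK2 at −1.24, MAL11 at −0.91 and PGM1 at −0.84. Between the genotypes with the drug 8 were higher and 9 lower (median −0.25), where 77.2% of all features were called, with MAL11 at −2.33, MSN4 at −1.24, DCS2 at −1.09, EMI2 at −1.0 and BMH1 at 1.49. MSN4 encodes a transcription factor of the stress response element. For the interaction 8 were higher and 4 lower (median 0.20), where 64.5% of all features were called, with MAL11 at −1.59, PGM3 at −0.89, GLK1 at 1.38, HXK1 at 1.27, BMH1 at 1.21 and BCY1, the regulatory subunit of protein kinase A, at 0.81. The genes named here passed in the comparison they are named for (limma adjusted p under 0.05) and kept their sign under all 4 other scalings tried. Whether their calls held under those scalings is not given here. With FPKM as deposited 1.63% of all features were called for the drug in Trm2KO and 39.6% for the drug in WT.

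Among 5850 features that averaged 10 normalised FPKM or more, the 5 whose log2 levels ran most like TPS1 over the 8 libraries were SSA4, YJR096W, BDH2, SPI1 and MET3 (Pearson r 0.987 to 0.990). SSA4 encodes a stress-induced cytosolic chaperone of the Hsp70 family and SPI1 a cell wall protein. Their sizes differed: SPI1 averaged 69.2 normalised FPKM in Trm2KO with hygromycin B, 33.5 in Trm2KO without it, 165 in WT with it and 70.4 in WT without it, and MET3 only 24.1, 21.2, 26.9 and 24.2 in the same groups. Most like NTH1 were HSP78, SHS1, APL2, IWR1 and RSC58 (r 0.991 to 0.996). HSP78, a mitochondrial chaperone of the ClpB family, averaged 84.9 normalised FPKM in Trm2KO with hygromycin B, 27.1 in Trm2KO without it, 157 in WT with it and 38.0 in WT without it. These coefficients describe 8 libraries that share 4 conditions and have no p.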

How the data were processed

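The deposited table held FPKM, 1 value per feature and library, computed by the authors. Per the submitters' processing notes reads were handled with STAR 2.7.8a, RSEM 1.3.3, FastQC 0.11.8 and cutadapt 2.3. Genome build, annotation and strand setting are not given in the sources used here. RSEM divides reads that match paralogues. Read depth is unknown, so no counting interval was computed. FPKM were divided by the median ratio of each library to the geometric mean over libraries (factors 0.611 to 1.44), and features with a mean FPKM of at least 1 were tested, 6439 in all. The values log2(normalised FPKM + 1) entered a linear model in limma 3.58.1, run in R 4.3.3 (1 mean per group, eBayes with trend, 4 residual degrees of freedom, 6.39 after moderation). Tests were two-sided, adjusted by Benjamini-Hochberg over all tested features, with a threshold of 0.05. Fold changes are on that log2 scale and understate changes of low genes. Other scalings, pseudocounts, filters, fits and left-out libraries were tried as alternatives. The fit was tested before use on simulated data in which 200 genes were changed at a time. Most features stayed unchanged there, so the simulation did not test the scaling where a large share of features changes. Sequences came from RefSeq R64 by gene identifier, and identities from global alignment in Biopython 1.88. Protein comparisons planned for the paralogues were not made, and coding sequences were aligned in their place. PGM3 was matched by its synonym. The genes, lists and tests were chosen with earlier results of these data known. All 9 genes are named; of the list of 18, at most the 6 largest called changes per comparison, less 1 gene that is not reported here; and the 5 features most like TPS1 and NTH1.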

Additional observations from a re-analysis of the deposited data

Results flagged for a closer look

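For 5 of the 9 genes the response to hygromycin B differed between Trm2KO and WT by the test of the difference itself (limma interaction). The difference, knockout minus WT on the log2 scale, was 1.84 for TPS2, 1.60 for TSL1, 1.07 for PGM2, 0.36 for TPS3 and −0.73 for NTH2. Interactions were common in these data, with 64.5% of all tested features called, and the share among the 9 was no higher. None of these 5 calls held with FPKM as deposited (limma adjusted p = 0.0845 to 0.943). Those of PGM2 and TPS3 also depended on single libraries.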

How the results depend on the processing

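Of the 45 log2 changes (9 genes, 5 comparisons) 45 kept direction and side of the threshold with each other pseudocount and with a mean FPKM of at least 10, 44 with no filter and without trend, 41 with quantile normalisation, 32 with TPM, 31 with TPM without ribosomal DNA features and 19 with FPKM as deposited. Leaving out 1 library kept 320 of 360. With FPKM as deposited the genes called were 3 for Trm2KO against WT without hygromycin B, 2 for the drug in Trm2KO, 2 for Trm2KO against WT with the drug and 0 for the interaction, and 2.53%, 1.63%, 33.0% and 7.28% of all features were called there and 39.6% for the drug in WT. TPM called 8 genes for the drug in WT, where it called 65.4% of all features, and 9 without ribosomal DNA features, where it called 77.7%. Of all features TPM called 16% for Trm2KO against WT without the drug, 23.5% for the drug in Trm2KO and 34.8% for the interaction. The causes were not tested.

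Directions turned as follows. For Trm2KO against WT without the drug UGP1 was at −0.18, −0.11 and −0.056 and ATH1 at −0.23, −0.16 and −0.12 (FPKM as deposited, TPM, TPM without ribosomal DNA features), and NTH2 at −0.017 as deposited. With the drug TPS3 was at −0.29, −0.11 and −0.028 under the same 3 scalings, UGP1 at −0.24 and −0.056 under the first 2, and TPS2 at −0.12 and TSL1 at −0.029 as deposited. For the interaction TPS1 was at −0.045 and UGP1 at −0.058 as deposited, and TPS1 at −0.063 with quantile normalisation, which put TPS3 at −0.057 for the drug in WT. Leaving out 1 library gave −0.053 to 0.13 for ATH1 between genotypes without the drug, −0.045 to 0.065 for ATH1 with the drug in Trm2KO, and, with the drug in WT, −0.044 to 0.11 for TPS3, −0.083 to 0.39 for TSL1, −0.099 to 0.60 for PGM2 and −0.0095 to 0.26 for UGP1. It called 4 to 9 genes for Trm2KO against WT with the drug, 3 to 6 for the interaction, and 26.3% to 50.7% of all features for Trm2KO against WT without it and 22.8% to 51.3% for the drug in Trm2KO.

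Synthesis minus breakdown kept its sign throughout. It was −1.17 for the drug in WT without ATH1. For the drug in Trm2KO it was 0.45 with a pseudocount of 5, 0.24 without TSL1 and 0.22 without ATH1. For Trm2KO against WT with the drug it was 0.42 with quantile normalisation, 0.46 with a pseudocount of 5 and 0.39 without TSL1, and for the interaction 1.32, 1.28 and 1.2, and 1.3 to 1.51 without 1 library. Deviations of libraries with the same replicate number correlated at −0.23 to 0.26 between groups, highest between Trm2KO and WT without hygromycin B. With 2 libraries a group this cannot tell whether replicate numbers mark a shared batch. With a replicate block 6, 5, 7, 9 and 5 genes were called, in the order of the comparisons in the report. Read depth is unknown, and 2 libraries a group limit the precision.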

Other observations

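PGM1, PGM2 and PGM3 differed in their mix between groups. PGM1 and PGM2 encode phosphoglucomutases, which interconvert glucose phosphates on the way to UDP-glucose. The ratio of PGM2 to PGM1 was 1.80 and 1.58 in WT with hygromycin B and 0.13 to 0.65 in all other libraries. PGM2 made up 9.88% ± 0.42 of the summed FPKM of PGM1, PGM2 and PGM3 in Trm2KO without hygromycin B, against 29.4% ± 6.87 in WT without it (SD, n = 2). PGM1 made up 72.7% ± 1.56 in that knockout group, against 58.3% ± 6.33 in WT. With hygromycin B PGM2 made up 28.5% ± 1.01 in Trm2KO and 40.0% ± 0.45 in WT, and PGM1 45.2% ± 0.57 in Trm2KO and 23.7% ± 1.93 in WT. In normalised FPKM PGM1 averaged 43.3 ± 0.08 in WT with the drug, against 123 ± 0.39 in WT without it. PGM1 and PGM2 were 72.8% identical in coding sequence, with 23 bases as the longest shared run. PGM3, also known as PRM15, is chiefly a phosphoribomutase, so the sum is not of phosphoglucomutase transcripts alone.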
